A study of Homo sapiens with 46 samples.

Results

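The histone cluster genes are the protein-coding genes of the human HIST1, HIST2, HIST3 and HIST4 loci, here all genes listed as protein-coding whose symbol begins with HIST1H, HIST2H, HIST3H or HIST4H. Of the 58735 genes in the count table, 71 met this rule, and 67 of them had at least 1 count in the 46 libraries. The libraries are poly(A)-enriched RNA from HEK293T cells (human embryonic kidney, the short name in the methods for HEK293-Flp-In T-Rex). They were collected 48 h after delivery of a chimera at 2 µM with the carrier Endo-Porter. A chimera is a morpholino, an uncharged antisense oligomer, joined by click chemistry to pCox4, a presequence that directs it into mitochondria, where it blocks translation of 1 mRNA encoded by mtDNA. The 11 treatments were silencing of ATP6, ATP8, COX1, COX2, COX3, CYTB, ND1, ND2, ND3, ND4L and ND5. For the control, pCox4 alone was taken through the buffer of the click reaction, and no morpholino was added. Each condition had 4 libraries except COX2 and ND2, which had 3 each. Replicates 1 and 2 form batch 1 (22 libraries) and replicates 3 and 4 form batch 2 (24 libraries), which the study's methods describe as made on different days with different lots of reagents. All of these cells are 1 line, and the control differs from a treatment in having no morpholino, and none of these libraries carries an unrelated morpholino.

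Most mRNAs end in a poly(A) tail, but the mRNAs of replication-dependent histones are the known exception in animal cells. They are transcribed in S phase, carry no intron, and are cut just after a short hairpin in the 3′ UTR that is bound by the stem-loop binding protein SLBP. Some of these genes also give longer, polyadenylated mRNAs, made with a poly(A) signal that lies beyond the hairpin, mainly in cells that leave the cycle. Selection on poly(A) tails removes most RNA without a tail, so the counts of these genes read the polyadenylated forms together with whatever RNA without a tail passed the selection, and the count table does not separate these.

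The hairpin was searched for in the GENCODE release 29 transcripts of each gene, as a stem of 6 bases beginning GG, a loop of 4 bases reading TTNC and the exact reverse complement of the stem. It was found in 22 of the 71 members, which are among 49 of 19922 protein-coding genes that hold it (0.246%). The models of 34 members have no UTR, so a hairpin in a 3′ UTR could not be seen in them. Of the 22, 17 held one form of the stem and belonged to the H2A (6), H2B (8) and H3 (3) classes, and the other form was found in 5 H4 genes. The sequences below show both forms, with the 16 bases of the hairpin in capitals and 7 bases on each side, all on the sense strand of GRCh38 (positions of the capitals: HIST3H2A chr1:228457369-228457384, HIST2H2BE chr1:149886188-149886203, HIST1H2AC chr6:26124669-26124684, HIST1H3H chr6:27810516-27810531, HIST1H4H chr6:26285131-26285146, HIST4H4 chr12:14770724-14770739; HIST3H2A, HIST2H2BE, HIST1H4H and HIST4H4 lie on the minus strand).
HIST3H2A: acataaaGGCTCTTTTCAGAGCCacctact
HIST2H2BE: ctccaaaGGCTCTTTTCAGAGCCacccacc
HIST1H2AC: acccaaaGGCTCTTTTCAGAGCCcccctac
HIST1H3H: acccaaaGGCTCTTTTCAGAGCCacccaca
HIST1H4H: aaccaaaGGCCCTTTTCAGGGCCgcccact
HIST4H4: tccaaaaGGCCCTTTTCAGGGCCcccaaac

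In 15 of the 22 members the annotated transcript ran on for more than 100 bases after the hairpin: 390 bases in HIST3H2A, 1128 in HIST1H2AC, 1729 in HIST2H2BE, 769 in HIST1H3H, 1655 in HIST1H4H and 1510 in HIST4H4. The hexamer AATAAA or ATTAAA is the signal for cleavage and polyadenylation. The models of 34 of the 71 members have no UTR, so a signal in a 3′ UTR could not be seen there. In 84.6% of protein-coding genes the hexamer stood in the last 60 bases of an annotated transcript. It stood there, and after any hairpin of the transcript, in 22 members (31.0%). That condition on the hairpin was not set for all genes. The last 30 bases of such transcripts are shown for members whose counts carry the results, with the hexamer in capitals (HIST3H2A chr1:228456979-228457008, HIST2H2BE chr1:149884459-149884488 and HIST1H4H chr6:26277609-26277638 on the minus strand, HIST1H2AC chr6:26139087-26139116, HIST1H2BD chr6:26171320-26171349 and HIST1H3H chr6:27811271-27811300 on the plus strand).
HIST3H2A: tctgatATTAAAagtatttatgatctctaa
HIST2H2BE: gttattAATAAAgttaccaattaatttaaa
HIST1H4H: agaattgtgaaaaAATAAAtgtttaagcca
HIST1H2AC: tAATAAAaggtaatgcaaagggagaggaaa
HIST1H2BD: taattAATAAAatctgcggagaattgtaaa
HIST1H3H: atgactaAATAAAatctgtataatccccac

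The gene models fall into kinds by this annotation. The 22 members with a signal held 48.4% of all member counts, 34 members whose model has no UTR held 35.2%, and 15 members with a UTR but no signal held 16.4%. HIST1H2BK and HIST1H1C, both known to give polyadenylated mRNAs, have models without a UTR (chr6:27146418-27146798 and chr6:26055787-26056428), so their annotated ends say nothing of a signal. Reads from a longer mRNA of such a gene would lie partly outside its model.

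The members include 11 pairs of an H2A and an H2B gene transcribed away from each other, with 218 to 330 bases between them. The 250 bases upstream of the RefSeq start (GRCh38.p14) were available for 61 members and were searched on both strands for TATAAA, for CCAAT and for the octamer ATTTGCAT, a binding sequence of POU factors. TATAAA occurred in 41 of 61 members and in 11.1% of all 27305 windows of that length. CCAAT occurred in 51 members and 33.0% of all windows, and the octamer in 21 members and 1.7% of all windows. Of the 21, 11 were H2A genes (of 16 with a window) and 9 were H2B genes (of 13). The window of HIST1H2BK, which lies between it and HIST1H2AH, held all 3 motifs, while that of HIST3H2A, which spans the 233 bases between it and HIST3H2BB and the first bases of the latter, held CCAAT alone. Both windows are shown on the strand of the named gene with the motifs, read on either strand, in capitals (chr6:27146859-27147108 and chr1:228457874-228458123, both minus strand).
HIST1H2BK: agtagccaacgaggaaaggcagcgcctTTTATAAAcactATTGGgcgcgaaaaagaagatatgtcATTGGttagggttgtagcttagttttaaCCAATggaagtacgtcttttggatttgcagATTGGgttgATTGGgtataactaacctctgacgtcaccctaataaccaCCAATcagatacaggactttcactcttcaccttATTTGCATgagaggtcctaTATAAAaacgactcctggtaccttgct
HIST3H2A: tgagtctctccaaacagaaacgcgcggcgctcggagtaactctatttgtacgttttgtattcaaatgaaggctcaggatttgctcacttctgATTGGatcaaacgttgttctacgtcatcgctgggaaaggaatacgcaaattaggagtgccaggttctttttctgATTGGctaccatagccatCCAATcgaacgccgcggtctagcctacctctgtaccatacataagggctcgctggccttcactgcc
Levels within a pair were read per kilobase of gene length in the 4 control libraries, in CPM (the counts-per-million unit, after TMM normalization) per kb. HIST1H2BK was at 62.6 and its neighbour HIST1H2AH at 0.815, HIST3H2A at 17.8 and HIST3H2BB at 0.649, and HIST1H2AC at 3.47 and HIST1H2BC at 0.852. HIST2H2AC was at 5.04 and HIST2H2BE at 1.23, and HIST1H2BJ at 2.89 and HIST1H2AG at 1.09. In these last pairs the gene models differ in length (390 and 2194 bases, 950 and 2250 bases), and before division by length the levels were 1.97 and 2.69 CPM and 2.74 and 2.44 CPM. Low pairs such as HIST1H2AJ (0.0592 ± 0.0685) and HIST1H2BM (0.0925 ± 0.0619 CPM per kb, SD, n = 4) lay within their SDs.

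Library totals ran from 18876395 to 100698084 counts. COX3 replicate 4 had the highest total and the next library had 28121898. Over all libraries the 71 members took 105587 counts, of which HIST1H2BK alone took 22.3%, the top 5 members 59.4% and the top 10 members 75.5%. By class, H2B genes took 39.1% of these counts, H2A genes 28.8%, H4 genes 18.2%, the linker histone H1 genes 8.18% and H3 genes 5.70%. The filter on low counts kept 36 of the 71 members among 20272 genes. The other 35 had between 0 and 242 counts over all libraries. HIST1H3D, HIST1H2AD, HIST1H2AK and HIST2H3PS2 had none, which allows up to 0.00259 CPM over all libraries (3 counts, counting error only). Each of these 4 overlaps another gene, and reads in an overlap can be left uncounted, so their level was not measurable here. Of 6 genes listed as markers of HEK293 cells, KRT8, VIM, NEFL and KRT18 had medians of 405, 412, 200.4 and 104 CPM after TMM normalization, while PAX2 stood at 4.97 to 9.82 and NEFM at 0.461 to 2.03. Of 10 genes listed for other cell types, the fibroblast genes COL1A1 at 20.5 to 31.2 CPM and LUM at 3.63 to 6.93 were highest, and COL3A1 reached at most 1.42. The others (PTPRC, CD3E, HBB, ALB, DCN, PECAM1 and CDH5) stayed at or below 0.736 CPM in all libraries.

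Because the genes differ in length, levels were compared per kilobase of annotated gene length. In the control libraries HIST1H2BK, an H2B gene, was highest at 62.6 ± 21.7 CPM per kb (SD, n = 4), followed by the H2A gene HIST3H2A at 17.8 ± 4.36 (SD, n = 4). The linker histone HIST1H1C stood at 11.1 ± 3.52 CPM per kb and the H4 gene HIST1H4I at 7.67 ± 1.65 (SD, n = 4). These SDs include the difference between the batches given below, and the values of HIST1H1C and HIST1H4I lie within 1 SD of HIST1H1C from each other. Within their classes the next genes were HIST2H2AC at 5.04 ± 0.827 and HIST1H2BD at 3.07 ± 1.48 CPM per kb. HIST1H3H led the H3 genes at 2.41 ± 0.510, ahead of HIST1H3E at 0.670 ± 0.259. HIST1H4C followed HIST1H4I among the H4 genes at 1.96 ± 0.801, and HIST1H1B followed HIST1H1C at 0.590 ± 0.308 CPM per kb (SD, n = 4 for each). Most of these second ranks are not separated from the next gene of the class: HIST1H2BJ at 2.89, HIST1H3B at 0.643, HIST1H4H at 1.83 and HIST1H1E at 0.537 CPM per kb lie within 1 SD of the gene above them. The replacement histone genes, which are expressed outside S phase and whose mRNAs mostly end in a poly(A) tail, include genes with higher levels: H2AFZ, which encodes H2A.Z, stood at 193 ± 12.7 CPM per kb, H3F3A at 121 ± 8.64 and H3F3B, both for H3.3, at 103 ± 3.58 (SD, n = 4). Summed without division by length, 12 replacement genes took 2410 to 2736 CPM of the library total. That is 19.6 to 41.5 times the sum of the cluster genes, with a median over libraries of 29.8 times. These sums carry gene length: the models of H2AFY and H3F3B have 17730 and 6134 bases, those of HIST1H2BK and HIST3H2A 381 and 895. The ratio is therefore not one of levels per kilobase.

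**Figure D1:**
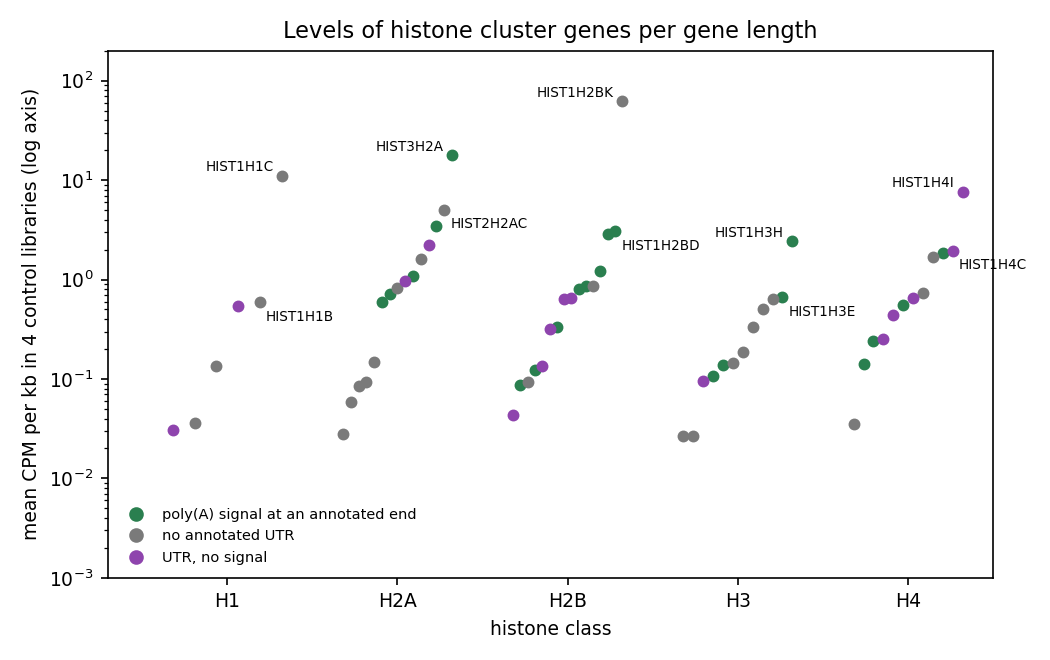
Mean level of 61 histone cluster genes with a control level above 0, in CPM per kilobase of gene length over 4 control libraries (log axis), by histone class; each point is a gene, coloured by its annotated 3′ end, and the 2 highest genes of each class are named. HIST1H2BK at 62.6 and HIST3H2A at 17.8 CPM per kb stand above the other members.

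Several members cannot be told from a copy by short reads. Of the 71, 16 had under 50% of their 50-base windows to themselves, and the median member had 98.7%. HIST1H2BK had 25.9% unique windows and shared 61.4% with H2BFS, a gene listed at 2 places on chromosome 21, which had only 89 counts in all libraries together. HIST1H4K had no unique window, since all of them occur in HIST1H4J, and the pairs HIST2H4A and HIST2H4B, HIST2H2AA3 and HIST2H2AA4, and HIST2H3A and HIST2H3C are near-identical copies. HIST3H2A (99.4% unique), HIST1H1C (all windows), HIST1H4I (99.4%), HIST1H2AC (99.6%) and HIST2H2BE (91.9%) were well separated.

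The members differed most between the batches. Against batch 1, 28 of the 36 tested members were lower in batch 2 and 1 was higher (edgeR's quasi-likelihood test, Benjamini-Hochberg adjusted p under 0.05, condition in the model), where 27.9% of all tested genes were lower and 29.2% higher. The median member changed by -0.74 on the log2 scale, and the median of all genes by 0.01. A member could pass the count filter only through the batch in which it is high, which favours a difference among the tested members. Such members were not singled out. Over all 67 members with counts, tested with no filter, 31 were called in either direction, against 24.4% of the 47354 genes in that fit.

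HIST2H2BE, an H2B gene known for a polyadenylated mRNA, showed the largest drop, with -1.56 ± 0.0835 on the log2 scale (SE; edgeR adjusted p = 3.1e-22). Its level was 2.69 to 4.71 CPM in batch 1 (median 3.60) and 0.607 to 2.45 in batch 2 (median 1.17), so no library of batch 2 reached a library of batch 1. HIST1H2AC, an H2A gene whose annotated transcript runs 1128 bases beyond its hairpin, was at 5.79 to 9.16 CPM (median 7.20) in batch 1 and 1.79 to 4.61 (median 2.72) in batch 2, a change of -1.31 ± 0.0731 (SE; edgeR adjusted p = 1.3e-21). HIST1H2BK ranged from 23.2 to 33.5 CPM (median 27.5) in batch 1 and from 11.6 to 18.5 (median 14.2) in batch 2, a change of -0.90 ± 0.0405 (SE; edgeR adjusted p = 3.3e-25). HIST1H1C and HIST1H4H, with changes of -0.87 and -0.99, were the other members whose batches did not overlap. These 5 of 36 compare with 0.602% of all tested genes in which all libraries of batch 2 lay below all of batch 1. HIST3H2A fell by 0.57 (SE 0.0353; edgeR adjusted p = 8.4e-20), with 13.0 to 20.9 CPM in batch 1 and 8.98 to 13.8 in batch 2, an overlap. All 12 conditions had a lower mean in batch 2 for each of these 6 genes.

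The exception was HIST1H4C, an H4 gene with a UTR and no annotated signal, which was 0.47 ± 0.156 higher in batch 2 on the log2 scale (SE; edgeR adjusted p = 0.0086) and lower there in 2 of the 12 conditions. It had 810 counts over all libraries. The 7 members that did not pass the test were HIST1H2AL, HIST1H4K, HIST1H1B, HIST1H2AH, HIST1H1E, HIST2H2AC and HIST1H3B. HIST2H2AC had a depth near that of called members (2597 counts) and a difference of -0.03 ± 0.0790 (SE), while its divergent neighbour HIST2H2BE, counted about as often, had the largest difference of all members.

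By gene model, all 19 tested members with an annotated poly(A) signal were lower in batch 2, with changes from -1.56 to -0.52 and a median of -0.74. Of the 9 without an annotated UTR, 3 were lower (HIST1H2BK, HIST1H1C and HIST1H2BO) and the median was -0.30. That count is near the share over all tested genes, of which 27.9% were lower and 29.2% higher. Of the 8 with a UTR and no signal, 6 were lower and 1 higher, with a median of -0.67. The median total count was 1727 in the first set, 341 in the second and 893 in the last, so the sets differed in depth as well as in annotation, and the part of depth in these counts was not tested. The 6 members fixed as known to give polyadenylated mRNAs (HIST1H1C, HIST1H2BD, HIST1H2BK, HIST1H2BC, HIST1H2AC and HIST2H2BE) were all lower, with a median change of -1.04 and a range from -1.56 to -0.65.

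**Figure D2:**
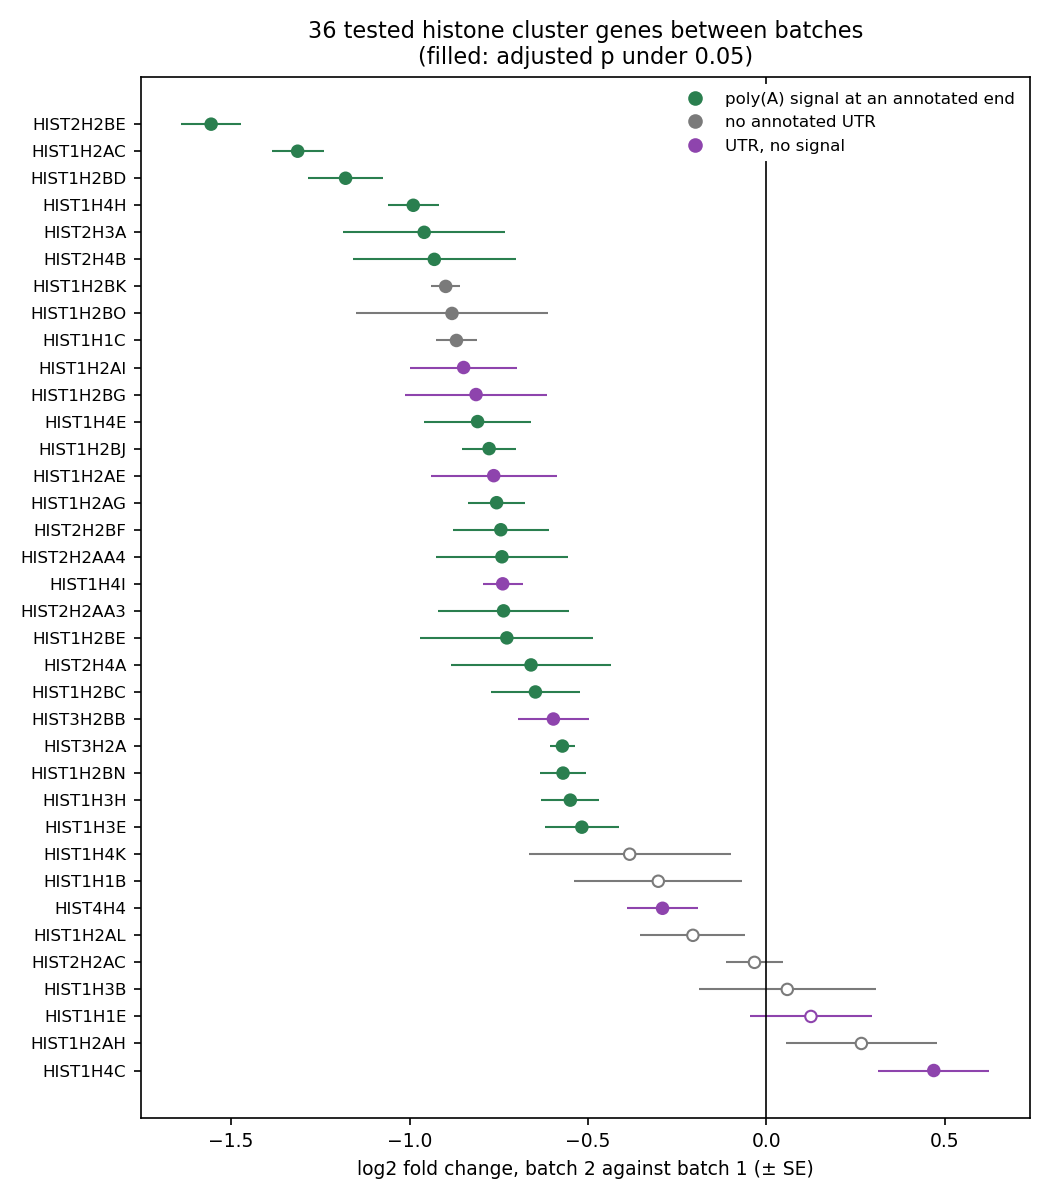
Log2 fold change of each of the 36 tested members in batch 2 (24 libraries) against batch 1 (22 libraries), with its standard error; colours give the annotated 3′ end and filled points have an adjusted p under 0.05. The 19 members with a poly(A) signal all lie between -1.56 and -0.52, and HIST1H4C at 0.47 is the member called higher.

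The summed members took 103 to 133 CPM of the library total in batch 1 (median 117) and 59.95 to 83.7 in batch 2 (median 70.1), with no overlap, and the mean of batch 2 was 60.2% of that of batch 1. The counts of a single library gave a 95% Wilson interval of 119 to 128 CPM in control replicate 1 and of 78.6 to 86.6 in control replicate 3 (counting error only). All 12 conditions were lower in batch 2. The members with a signal stood in batch 2 at 58.3% of batch 1, those without an annotated UTR at 59.5% and those with a UTR and no signal at 68.0%. The members without an annotated UTR that had the most counts were HIST1H2BK (23501) and HIST1H1C (7673), with changes of -0.90 and -0.87. The median change of the 9 tested members of that set was -0.30. Without the 6 members known for polyadenylated forms, batch 2 stood at 67.2%. In bulk RNA, fewer cells that hold a transcript and less of it per cell cannot be told apart. The mtDNA-encoded share of counts also differed between the batches, with 4.26% ± 0.226 (SD, n = 22) in batch 1 and 4.83% ± 0.261 (SD, n = 24) in batch 2. Batch stands for the day and the reagents together, with any later step that followed the same split, and these cannot be told apart.

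Other RNAs without a classical poly(A) tail did not move as 1 group. Of 20 listed, 5 passed the count filter, and all differed between the batches. MALAT1 and NEAT1, nuclear long RNAs with long forms whose ends form a triple helix, were higher in batch 2 by 0.80 ± 0.0510 and 0.89 ± 0.0378 on the log2 scale (SE). RN7SL2, a signal recognition particle RNA, changed by -0.69 ± 0.202, SNORD3A, the U3 small nucleolar RNA, by -0.75 ± 0.146, and RNU5A-1, a spliceosomal RNA, by -0.96 ± 0.213 (SE). The listed RNAs other than MALAT1 and NEAT1 summed to 46.9 to 370 CPM in batch 1 (median 89.4) and to 13.96 to 302 in batch 2 (median 42.9), ranges that overlap widely. Of the 19 tested factors of histone mRNA transcription and 3′ processing, 16 were lower in batch 2 and 2 higher, with a median of -0.12; SLBP was lower, at -0.08 ± 0.0212 (SE; edgeR adjusted p = 0.00085), from 111 ± 5.60 CPM (SD, n = 22) to 105 ± 5.16 (SD, n = 24). S-phase genes were lower in 18 of 26 cases and higher in none, with a median of -0.09 and a lowest value of -0.27 (CDC6, which loads the replicative helicase). Replacement histone genes were lower in 5 of 11 and higher in 2, between -0.30 for H1F0 (linker histone H1.0) and 0.20 for H1FX (linker histone H1.10), and histone chaperones were lower in 5 of 16 and higher in 4. These call counts stand beside 27.9% of all tested genes lower and 29.2% higher. The medians of the processing and S-phase lists, -0.12 and -0.09, were nearer to 0 than the -0.74 of the cluster genes. The part of depth, cell cycle and poly(A) selection in the batch difference was not tested.

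Against the control, with the batch in the model, 1 call was made in 36 members and 11 treatments: HIST3H2A was lower after COX3 silencing. In that comparison 0.306% of all genes were called. No member was called after silencing of ATP6 (0.00987% of all genes called), ATP8 (0.0641%), COX1 (0.0543%), COX2 (0.469%), CYTB (0.548%), ND1 (0.0888%), ND2 (0.0247%), ND3 (0.00987%), ND4L (0.148%) or ND5 (0.158%). In 1 test over all treatments by edgeR, 0 members were called and 8 had an unadjusted p under 0.05, where 0.493% and 12.2% of all genes did so. By DESeq2 3 members were called, where 608 of all 20272 genes (3%) were. HIST1H2BK came closest (edgeR adjusted p = 0.064), followed by HIST3H2A (0.088) and HIST1H2BJ (0.11).

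Short of the threshold, the members' values lay mostly below 0. The median log2 fold change of the 36 members was -0.35 after ND5 and after CYTB silencing, -0.24 after COX3, -0.23 after ND1, -0.21 after COX2 and ND2, -0.19 after ATP8, -0.16 after COX1, -0.14 after ND4L, -0.09 after ATP6 and 0.00 after ND3, while the median of all genes was within 0.01 of 0 in each. All treatments share the 4 control libraries, so these medians are not independent of each other. Single libraries moved the smaller ones by over 1.5 times: the median for COX2 was -0.36 without COX2 replicate 2, that for ND1 -0.15 without control replicate 4, and that for ATP6 -0.03 without ATP6 replicate 1 and -0.15 without replicate 2. The median for ND4L was -0.22 without control replicate 1, -0.08 without control replicate 4 and -0.08 without ND4L replicate 3, and that for ND3 ran from -0.08 to 0.03 on leaving out a library. Over the 67 members of the fit with no filter, the medians of all treatments other than ND3 (-0.02) were nearer to 0: -0.28 for CYTB, -0.24 for ND5, -0.19 for ND1, -0.18 for ND2, -0.17 for ATP8, -0.13 for COX3, -0.09 for COX1 and ND4L, -0.08 for COX2 and -0.06 for ATP6. Members below 0 numbered 32 of 36 after ND5 and 31 after CYTB silencing, and 18 after ND3, whereas 49.7%, 50.1% and 49.0% of all genes were below 0 there. At an unadjusted p under 0.05, 10 members were lower after CYTB silencing (6.01% of all genes were), 9 after COX3 (4.74%), 8 after COX2 (6.16%), 7 after ND5 (4.53%), 5 after ND1 (5.24%), 3 after ATP8 (4.02%) and ND2 (2.57%), 2 after COX1 (2.86%), 1 after ATP6 (3.69%) and ND4L (6.99%) and 0 after ND3 (1.69%). HIST2H4A after COX3 was the single value of this kind above 0. It stood at 1.38, 0.213, 0.100 and 0.525 CPM in COX3 replicates 1 to 4 and at 0.177, 0.353, 0.297 and 0.237 in the control replicates, so 2 of the 4 COX3 libraries lay above the controls of their batch, 1 between them and 1 below. Its near-identical copy HIST2H4B makes that value uncertain.

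**Figure D3:**
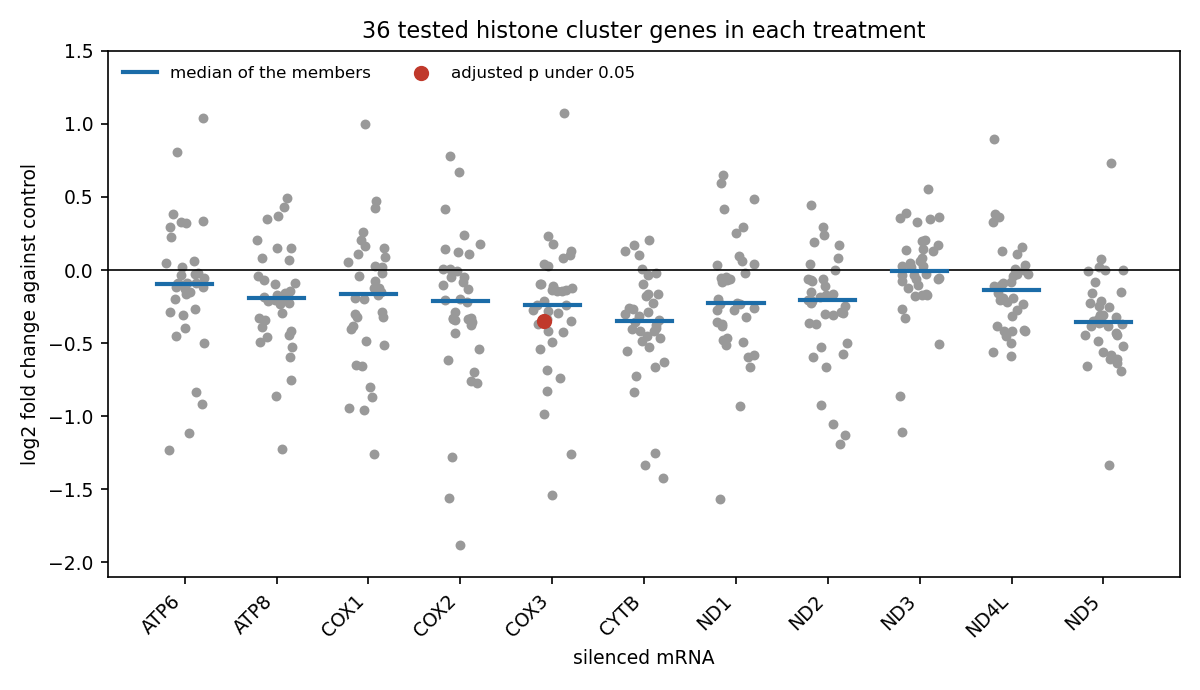
Log2 fold change of the 36 tested members against the control in each of the 11 treatments, with batch in the model; each point is a gene, bars mark the median of the members, and the red point is HIST3H2A after COX3 silencing. The medians run from -0.35 (ND5, CYTB) to 0.00 (ND3).

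Fitted within batches (38 members tested in batch 1 and 33 in batch 2), the medians kept their sign in both for 9 of the 11 treatments and were further from 0 in batch 2 for most. After CYTB silencing the median was -0.17 in batch 1 alone and -0.65 in batch 2 alone, after ND5 -0.24 and -0.52, after COX3 -0.12 and -0.33, after COX2 -0.09 and -0.43, after ND1 -0.04 and -0.38, and after ND2 -0.16 and -0.33. In batch 1, COX2 and ND2 have 1 library each, so their medians there set a single treated library against 2 controls. After ATP8 it was -0.12 and -0.29, after ATP6 -0.01 and -0.11, and after COX1, where batch 1 was the lower, -0.18 and -0.15. After ND4L and ND3 the sign differed, with 0.01 and 0.05 in batch 1 and -0.28 and -0.09 in batch 2. A test of the difference of any treatment between the batches called 0 members (edgeR interaction term) and gave an unadjusted p under 0.05 for 2 of 36, where 5.19% of all genes did so.

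The summed share also lay mostly below the control. Taken relative to the control mean of its batch, 39 of the 42 treated libraries had a lower histone share. The mean share was 80.0% of the control after COX2 (SD 9.36, n = 3), 80.1% after CYTB (SD 8.83, n = 4), 81.7% after COX3 (SD 2.36, n = 4) and 81.7% after ND5 silencing (SD 7.79, n = 4). It was 85.5% after ND2 (SD 6.71, n = 3), 87.0% after ND1 (SD 7.64, n = 4) and 88.3% after ATP8 (SD 5.83, n = 4). The remaining groups stood at 90.4% for COX1 (SD 4.34), 91.6% for ATP6 (SD 8.83), 93.4% for ND4L (SD 9.06) and 97.9% for ND3 (SD 4.73; n = 4 for each). The control libraries lay between 97.3% and 103% of their own batch mean, each mean resting on 2 libraries. Each control enters the mean it is set against, so this range can understate the spread of controls. All treated libraries of a batch are set against the same mean, so their percentages are not independent of each other. In COX3, with the smallest SD among the treatments, the 4 libraries stood at 82.4%, 84.3%, 81.5% and 78.6%. All libraries of COX3, and also of ATP8, COX1, COX2, CYTB, ND1, ND2 and ND5, lay below the lowest control library (97.3%), the highest of them in ND1 at 96.7%. The libraries above 100% were ATP6 replicate 2 (102%), ND3 replicate 1 (103%) and ND4L replicate 2 (105%).

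HIST3H2A, an H2A gene on chromosome 1 (chr1:228456979-228457873, minus strand, 1 exon; gene identifier ENSG00000181218), was read at 19.4, 19.1, 12.9 and 12.2 CPM in control replicates 1 to 4. After COX3 silencing it stood at 16.3, 13.0, 10.1 and 10.3 CPM. In each batch both COX3 libraries lay below both control libraries. The log2 fold change was -0.35 ± 0.0831 (SE; edgeR adjusted p = 0.040), with all 4 libraries between 67.4% and 84.5% of the control mean of their batch. The call was lost on leaving out any of the 4 control or 4 COX3 libraries, and on leaving out ND2 replicate 1 or 4: the edgeR adjusted p ran from 0.033 to 0.16 over the 46 fits that left out 1 library each and the fold change from -0.40 to -0.28. In batch 1 alone the change was -0.39 and in batch 2 alone -0.31, neither of them called. The call was also lost with no count filter (edgeR adjusted p = 0.075), with the COX3 and control libraries alone (0.078) and with no batch term (0.98). It was kept by DESeq2 (adjusted p = 0.0099, where 0.735% of all genes were called), with a minimum count of 50 (edgeR adjusted p = 0.027), with the replicate block (0.023) and with RLE size factors (0.040). After COX2 silencing the same gene had -0.34 ± 0.0933 (SE; edgeR adjusted p = 0.070), with 16.8, 8.98 and 9.77 CPM in replicates 2, 3 and 4. That value passed by DESeq2 (adjusted p = 0.028, where 1.52% of all genes were called), with a minimum count of 50 (edgeR adjusted p = 0.047, 1.08%) and with the replicate number as a block (edgeR adjusted p = 0.045, 1.09%). Its fitted value was below 0 in all 11 treatments and closest to 0 after ND4L silencing.

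HIST1H2BK (chr6:27146418-27146798, minus strand; gene identifier ENSG00000197903) was at 29.9, 31.998, 16.4 and 17.0 CPM in control replicates 1 to 4. After ND5 silencing it was at 23.8, 27.4, 11.6 and 11.6 CPM, below both controls of the batch in each library. The log2 fold change was -0.39 ± 0.0970 (SE), which missed the threshold (edgeR adjusted p = 0.083). After CYTB silencing the libraries held 23.2, 26.6, 11.6 and 13.6 CPM, again each below both controls of its batch, with -0.36 ± 0.0972 (SE; edgeR adjusted p = 0.065). After COX3 silencing they held 23.4, 25.5, 13.8 and 13.1 CPM (log2 fold change -0.33, edgeR adjusted p = 0.11), and after COX2 silencing 26.1, 12.3 and 13.4 CPM (-0.33, edgeR adjusted p = 0.13). DESeq2 called HIST1H2BK after CYTB and after ND5 silencing (1.68% and 0.503% of all genes called). The edgeR fits with no filter, with the replicate block and with treatment and control libraries alone called it in both as well and after COX3 silencing, and the fits with the block and with those libraries alone also after COX2 silencing. The replicates of ND3, at 30.3, 27.7, 15.5 and 17.4 CPM, overlapped the control in both batches.

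**Figure D4:**
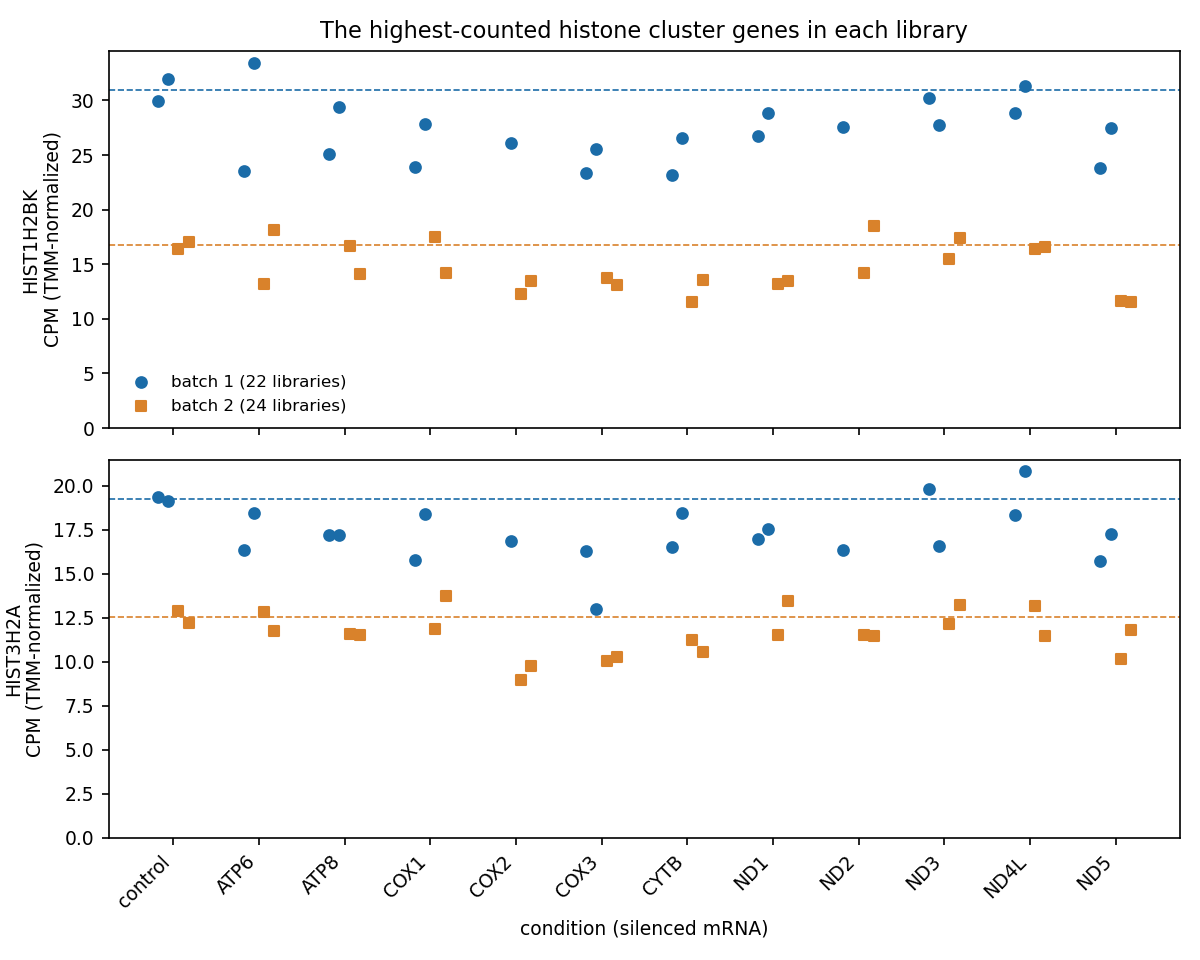
CPM after TMM normalization of HIST1H2BK (top) and HIST3H2A (bottom) in each of the 46 libraries by condition; circles are batch 1, squares batch 2, and dashed lines the control mean of each batch. HIST1H2BK runs from 23.2 to 33.5 CPM in batch 1 and from 11.6 to 18.5 in batch 2, and all COX3 libraries of HIST3H2A lie below their control line.

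Other frequent members gave values of like size that did not pass the edgeR test. HIST1H2AC was at -0.49 ± 0.176 after CYTB (SE; edgeR adjusted p = 0.18) and -0.50 ± 0.193 after ND2 silencing (SE; edgeR adjusted p = 0.998). The ND2 value was -0.81 without ND2 replicate 1, the single ND2 library of batch 1, and stood at -0.05 in batch 1 alone and -0.98 in batch 2 alone. HIST1H3H, the leading H3 gene, was at -0.68 ± 0.188 after COX3 silencing (SE; edgeR adjusted p = 0.10), which DESeq2 called (adjusted p = 0.038, where 0.735% of all genes were). HIST2H2BE was at -0.63 ± 0.203 after CYTB silencing (SE; edgeR adjusted p = 0.13). HIST1H4I reached -0.43 after COX3 and HIST1H1C -0.32 after CYTB silencing. HIST1H2BN and HIST1H4H, an H2B and an H4 gene with a poly(A) signal, ran from -0.36 to 0.01 and from -0.17 to 0.20 over the treatments, and HIST1H2BD from -0.53 to 0.21. HIST1H2BC, of the fixed set known for polyadenylated forms, ran from -0.41 to 0.43.

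The largest changes belonged to genes with few counts. In 9 treatments the tested member with the largest absolute log2 fold change was HIST1H4K, an H4 gene (chr6:27831216-27831527, minus strand), with values from -1.88 (COX2) to -1.11 (ND3); in ND2 it was HIST1H2AL, an H2A gene, at -1.19 and in ND4L HIST2H4A at 0.90, none of them called. HIST1H4K had 17, 6, 11 and 11 counts in control replicates 1 to 4 and 2, 0 and 7 in the COX2 libraries, and its value was -3.51 without COX2 replicate 4. In ND3 it was -1.70 without ND3 replicate 3. Its reads cannot be told from those of HIST1H4J. The same 4 control libraries stand behind all of its values.

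Genes around histone production were read in the same comparisons. Among the 19 tested genes of histone mRNA processing, the 11 replacement histone genes and the 16 chaperones, none was called in a treatment. SLBP ran from -0.10 (ND5, edgeR adjusted p = 0.52) to 0.03 (ND1), and H1F0 from -0.18 (ND2) to 0.13 (ND4L), neither called anywhere. Of 26 S-phase genes, PCNA, the sliding clamp of DNA replication, was lower after CYTB (-0.19 ± 0.0469, SE; edgeR adjusted p = 0.037) and after ND5 silencing (-0.21 ± 0.0468, SE; edgeR adjusted p = 0.033), the treatments with the lowest member medians. The list's median there was -0.08 and -0.07, with 23 and 24 of 26 genes below 0, where 50.1% and 49.7% of all genes were. Of the RNAs without a classical poly(A) tail, MALAT1 was higher after ND5 silencing (0.55 ± 0.120, SE; edgeR adjusted p = 0.025). The part of S-phase genes or of poly(A) selection in the histone values was not tested.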

How the data were processed

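For 46 libraries of poly(A)-enriched RNA the authors deposited raw read counts per gene, with a gene length in bases; the submitters' processing notes name R 4.3.0, DESeq2 1.40.2, limma 3.56.2 and build GRCh38.p12. Aligner, counting tool and strand setting are not given in the sources used here, so overlapping and near-identical genes may share or lose reads. The labels describe single-end reads and the study's methods paired-end reads. Identifiers and positions matched GENCODE release 29.

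Counts of all libraries were fitted in R 4.3.3 with edgeR 4.0.16 (TMM, filterByExpr with a minimum count of 10, condition and batch in 1 model, quasi-likelihood F test), with Benjamini-Hochberg adjustment over 20272 genes and a threshold of 0.05. SEs were derived from the F statistic. CPM values use TMM library sizes. The interaction of treatment and batch was fitted in the same way. DESeq2 1.42.0 and other settings were tried as alternatives. The script was tested on simulated counts. Members and gene lists were chosen with earlier results of these data known. Members named in the text are the 10 with the highest mean CPM, those called in a treatment, the largest change in each treatment, the 5 with the smallest adjusted p between batches, the 2 highest per length of each class, and the 6 known for polyadenylated forms; other names were chosen after their values were seen. The study calls its replicates biological; p-values measure the spread between these libraries. Replicates differed by more than sampling noise (chi-square of at least 3.28 per degree of freedom).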

Additional observations from a re-analysis of the deposited data

How the results depend on the processing

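The number of member calls against the control (1, HIST3H2A after COX3) was 5 by DESeq2 (0.665% of all gene and treatment pairs called, against 0.171% in edgeR), 3 with no filter (0.416%), 2 with a minimum count of 50 (0.364%), 4 with the libraries of each treatment and control fitted alone (0.828%), and 0 with no batch term, in batch 1 only and in batch 2 only; leaving out 1 library gave 0 to 2, the 2 without ATP6 replicate 2 or ND5 replicate 2, where HIST1H2BK was added. With the replicate number as a replicate block in place of the batch it was 6 (0.400%), in 2 members, HIST1H2BK and HIST3H2A. Same-numbered libraries of different conditions had a mean r of -0.01 over 242 pairs. The mean was -0.05 over 243 pairs of the same batch with other numbers and 0.03 over 484 pairs across batches. The ranges of r overlap (-0.11 to 0.09, -0.15 to 0.04 and -0.06 to 0.13). These values do not settle whether the numbers pair libraries within a batch. Members called in at least 1 treatment numbered 3 by DESeq2 and 0 with no batch term or in either batch alone, and 0 to 2 on leaving out a library. In the single test over all treatments the count of 0 became 3 by DESeq2, 1 with no filter (2.22% of all genes), and 0 to 1 on leaving out a library (1 without ATP6 replicate 1 or 3, COX1 replicate 1 or 3, or ND5 replicate 2). The fall of 29 to 15 members that differ between the batches with a minimum count of 50 came with 16 members tested (65.8% of all genes called); leaving out a library gave 28 to 30, and the 25 tested members with at least 90% unique windows, an alternative added after seeing the data, gave 20. The share of batch 2 relative to batch 1 moved from 60.2% to 67.2% without the 6 members known for polyadenylated forms, and stayed at 59.7% to 60.6% on leaving out a library. None of the 37 member and treatment pairs fitted under these alternatives changed sign; other named values were not refitted. RLE size factors changed no count. Low counts limit many members: 35 of 71 did not pass the count filter, and 67 entered the fit with no filter.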
